A study of Homo sapiens with 27 samples.

Results

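The replication-dependent histone genes encode the bulk histones that package newly made DNA. They were taken as all protein-coding genes of the deposited tables named H1-1 to H1-6, or H2AC, H2BC, H3C or H4C with a number, and pseudogenes were left out. This gave 64 genes of the 44661 human genes listed in either table: 63 of 41686 in the table of shRNA libraries and 60 of 34742 in the table of siRNA libraries. The names, and no measured value, chose the members.

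The libraries came from SHP77, an established human small cell lung cancer cell line, and the study set out to learn what the circular RNA circRMST and the transcription factors SOX2 and NKX2-1 do in it. In the first experiment, lentivirus carried a control shRNA against GFP (shGFP, n = 2), circRMST shRNA 1 (n = 2) or circRMST shRNA 2 (n = 2), and all cells of that experiment were kept in puromycin at 3 µg/ml for 3 days or longer, with total RNA sequenced from a stranded kit. In the second, cells received a control siRNA (si-control, n = 3), SOX2 siRNA 1 or 2 (n = 2 each) or NKX2-1 siRNA 1 or 2 (n = 2 each) for 72 hours, and poly(A) RNA was sequenced with a kit that the labels do not call stranded. All groups are the same line without an edited gene in the labels, and each value is an average over a culture.

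In a nucleosome, DNA winds around a core of H2A, H2B, H3 and H4, and the linker histone H1 binds where the DNA enters and leaves. Replication-dependent histone genes are transcribed mainly in S phase, lie in clusters of many near-identical copies, and have no introns in their main transcript. Their mRNAs end in a stem-loop that the protein SLBP binds, not in a poly(A) tail, although some of the genes can also give polyadenylated transcripts that read past the stem-loop.

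Of the 64 genes, most lie in the large cluster on chromosome 6 (6p22), with smaller groups on chromosome 1 (1q21 and 1q42) and the gene H4C16 on chromosome 12 (12p12). A RefSeq window of 250 bases before the start site was at hand for 59 of them. The sequence TATAAA, the core of the TATA box, was found on either strand in 39 of these 59 windows (66.1%), against 11.1% of all 27305 promoter windows of that length. CCAAT was found in 49 (83.0%), against 33.0%: it stood in all windows of the H1, H2A, H2B and H3 genes and in 3 of 13 of the H4 genes. The octamer ATTTGCAT was found in 25 (42.4%), against 1.66% of all windows, in 11 of 14 H2A and 14 of 18 H2B windows and in none of the H1, H3 or H4 windows. GGTCC, searched as an H4 element, was found in 12 of 13 H4 windows (92.3%), against 40.4% of all windows and 19 of the 59 members' windows (32.2%). These are matches of letters, not tested binding sites, and the windows of H2A and H2B genes that face each other overlap and share matches.

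The 150 bases before the start sites of 7 genes that the results below turn on are printed 5′ to 3′ on the gene's own strand, from RefSeq on GRCh38.p14, with the motifs just named, on either strand, in capitals.
H1-2 (chr6:26056471-26056620, minus strand): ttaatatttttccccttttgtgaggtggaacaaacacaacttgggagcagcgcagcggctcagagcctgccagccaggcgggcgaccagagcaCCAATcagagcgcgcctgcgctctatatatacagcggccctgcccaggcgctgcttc
H1-4 (chr6:26156179-26156328, plus strand): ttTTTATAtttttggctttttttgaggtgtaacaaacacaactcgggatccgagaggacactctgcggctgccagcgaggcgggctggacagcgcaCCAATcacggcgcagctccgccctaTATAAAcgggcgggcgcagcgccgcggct
H2AC14 (chr6:27814778-27814927, minus strand): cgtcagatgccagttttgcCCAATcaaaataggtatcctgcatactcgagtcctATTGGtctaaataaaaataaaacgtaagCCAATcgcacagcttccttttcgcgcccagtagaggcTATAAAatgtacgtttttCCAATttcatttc
H2BC7 (chr6:26199366-26199515, plus strand): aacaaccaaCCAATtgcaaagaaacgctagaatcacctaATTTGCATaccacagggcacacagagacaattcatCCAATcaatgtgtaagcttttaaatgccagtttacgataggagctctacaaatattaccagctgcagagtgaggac
H2BC12 (chr6:27146859-27147008, minus strand): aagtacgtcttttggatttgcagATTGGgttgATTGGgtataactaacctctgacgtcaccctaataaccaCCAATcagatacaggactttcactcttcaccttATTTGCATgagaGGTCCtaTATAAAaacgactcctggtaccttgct
H3C8 (chr6:26271414-26271563, minus strand): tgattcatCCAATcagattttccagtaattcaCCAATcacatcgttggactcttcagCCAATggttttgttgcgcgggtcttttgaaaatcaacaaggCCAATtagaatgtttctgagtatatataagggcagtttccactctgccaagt
H4C13 (chr6:27873535-27873684, minus strand): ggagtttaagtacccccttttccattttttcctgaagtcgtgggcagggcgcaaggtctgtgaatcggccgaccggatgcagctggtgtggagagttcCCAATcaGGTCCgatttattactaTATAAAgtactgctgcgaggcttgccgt
They are single genes and need not stand for their families: 7 of 8 H3 windows hold TATAAA, for example, but that of H3C8 does not. H2BC12 and H4C13 carry TATAAA and GGTCC close to the start, H2BC12 and H2BC7 the octamer, and H1-2 and H3C8 have CCAAT but no exact TATAAA in the printed stretch.

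Depth was 46.9 to 57.4 M reads in human genes per shRNA library and 15.5 to 50.1 M per siRNA library. The 8 markers of small cell lung cancer that were looked up all had reads in both tables, with summed values of 56685 to 61437 in shGFP and 62553 to 63178 in si-control. NEUROD1, POU2F3 and YAP1, which mark other subtypes, summed to 41.8 to 74.0 in shGFP and, with 2 of the 3 listed, to 0 to 1.41 in si-control. Fibroblast markers summed to 178 to 259 in shGFP, and blood and endothelial markers to 428 to 439. SOX2 itself was at 1142 ± 54.0 normalized counts (SD, n = 3) in si-control, 389 and 396 with SOX2 siRNA 1, and 439 and 466 with siRNA 2. NKX2-1 was at 2234 ± 110 in si-control, 959 and 1070 with NKX2-1 siRNA 1, and 796 and 836 with siRNA 2. The circular product of RMST was not counted apart from its host gene, so the gene table holds no direct check of the circRMST knockdown. Host gene RMST was at 275 and 304 in shGFP, 262 and 289 with shRNA 1, and 234 and 285 with shRNA 2.

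Total RNA and poly(A) RNA from untargeted cells held very different amounts of histone RNA. The members took 0.314% and 0.292% of all human-gene reads in the 2 shGFP libraries, and 0.0284%, 0.0277% and 0.0273% in the 3 si-control libraries. Mitochondrially encoded genes filled 46.5 to 47.6% of the shGFP libraries and 9.95 to 10.3% of the si-control libraries. Without those genes and RNAs of the 7SL type, the shares were 0.590% and 0.560% in shGFP, and 0.0304 to 0.0316% in si-control. The kit, the delivery of the knockdown reagent and the selection differ together between the tables, so what sets this gap cannot be told apart from these libraries. The tables were also normalized separately, and levels are therefore set side by side only as ranks and shares within a table.

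Rank was taken by mean control count among the 31767 genes listed in both tables, as a percentile from 0 (lowest) to 100 (highest). The 59 members listed in both had a median percentile of 85.2 in total RNA and 50.9 in poly(A) RNA. Of these, 55 ranked lower in poly(A) RNA, 34 of them by over 30 points, and 20 stood above the 90th percentile in total RNA against 0 in poly(A) RNA. The shares of all 31767 genes that ranked lower, or lower by over 30 points, were not computed. By family, the median fell from 93.5 to 50.6 for H1, from 86.1 to 51.7 for H2A, from 90.4 to 58.6 for H2B, from 81.4 to 47.7 for H3 and from 67.3 to 44.6 for H4. Counts do not correct for gene length, but a gene has the same length in both tables, and all except 7 of these genes span less than 1000 bases.

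**Figure D1:**
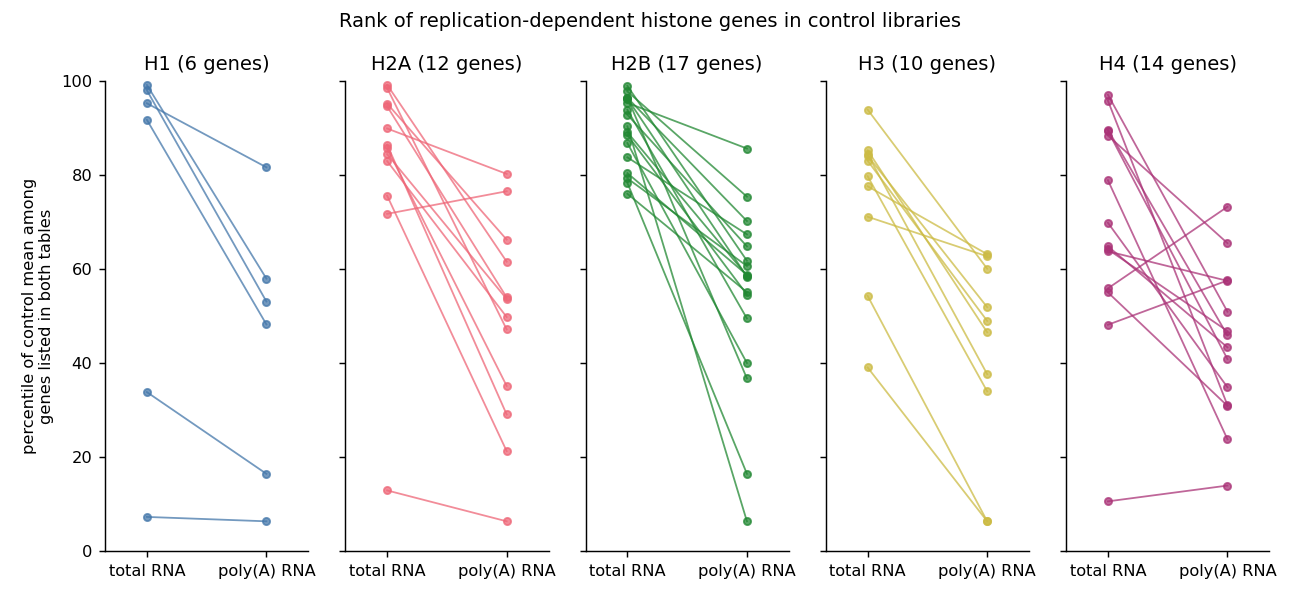
Percentile (y axis, 0 to 100) of each histone gene's mean control count in total RNA (shGFP) and in poly(A) RNA (si-control), 1 line per gene and 1 panel per family. Lines slope down for 55 of 59 genes, and the 4 that slope up are H2AC25, H4C7, H4C9 and H4C14.

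Most of the highest-ranked genes of total RNA were low in poly(A) RNA. H2AC20, an H2A gene of 1q21, had 13015 and 12025 normalized counts in shGFP and 83.6, 70.7 and 74.7 in si-control, a move from percentile 99.2 to 61.6. H1-4, a major linker histone, had 12421 and 11799 in shGFP and 63.6, 36.6 and 24.0 in si-control, from 99.2 to 58.0. H2AC14 had 8847 and 8664 in shGFP and 7.49, 8.53 and 12.7 in si-control, from 98.5 to 47.1. H4C13 had 4624 and 4236 in shGFP, and 0, 1.22 and 4.23 in si-control, where it stood at 31.0 after 95.8. H2BC10 showed the steepest drop: 2396 and 2071 normalized counts in shGFP, and no read in any of the 3 si-control libraries. H2BC21 was an exception among the abundant genes, with 6836 and 6630 in shGFP (97.8) and 473, 515 and 489 in si-control (75.4). In all, 19 members had at most 10 reads over the 3 si-control libraries together, and 6 had 0.

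The most abundant members of poly(A) RNA dropped less in rank than the median member (a shift of -33.2 points), or rose. Some scarce members did so too, such as H4C14 (si-control mean 38.7, a shift of 9.43) and H4C7 (0.406, a shift of 3.36). H2BC12, an H2B gene of 6p22, had 4269 and 3950 normalized counts in shGFP (percentile 95.3) and 1152, 1135 and 1085 in si-control (85.6). H1-2, a linker histone, had 4216 and 3881 in shGFP (95.3) and 835, 874 and 775 in si-control (81.6). H2AC6 had 2201 and 2051 in shGFP (89.9) and 729, 749 and 737 in si-control (80.2). H2AC25 of 1q42 ranked higher in poly(A) RNA, with 398 and 369 in shGFP (71.7) and 572, 528 and 551 in si-control (76.5). The 5 most abundant members held 61.5% of the members' summed control counts in poly(A) RNA and 35.1% in total RNA, and 4 members made up 50% of the sum in poly(A) RNA against 9 in total RNA.

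H4C9 also ranked higher in poly(A) RNA (73.2) than in total RNA (55.9), with 41.1 and 57.9 normalized counts in shGFP and 394, 384 and 413 in si-control. H4C9 lies at chr6:27139282-27139678, inside the longer span that RefSeq gives H2BC12 (chr6:27138293-27146858). The poly(A) kit is not labelled stranded, so in that table reads of H4C9 and of a longer H2BC12 transcript cannot be told apart. Likewise H3C15 lies inside the span of H4C15, and H4C14 and H4C15, or H3C14 and H3C15, are near-identical copies whose counts are uncertain. The RefSeq span of H2BC18 is 29682 bases long and overlaps FCGR1A and LOC124904411. Whether its counts hold reads of these genes was not tested.

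In total RNA, knockdown of circRMST went with lower histone RNA in every family. Summed over members, normalized counts were 151272 and 141597 in shGFP, 93828 and 84935 with shRNA 1, and 103379 and 106218 with shRNA 2. All 4 knockdown libraries lay below both controls, at 61.0% of the control mean with shRNA 1 and 71.6% with shRNA 2. H1 went to 55.7% and 68.0% of control, H2A to 60.7% and 67.9%, H2B to 62.0% and 74.5%, H3 to 64.5% and 75.9% and H4 to 64.7% and 73.2%. As a share of reads without mitochondrial and 7SL-type genes, the members held 0.590% and 0.560% in shGFP, 0.345% and 0.311% with shRNA 1, and 0.401% and 0.408% with shRNA 2. In bulk RNA, fewer cells in S phase and less histone RNA per cell cannot be told apart.

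**Figure D2:**
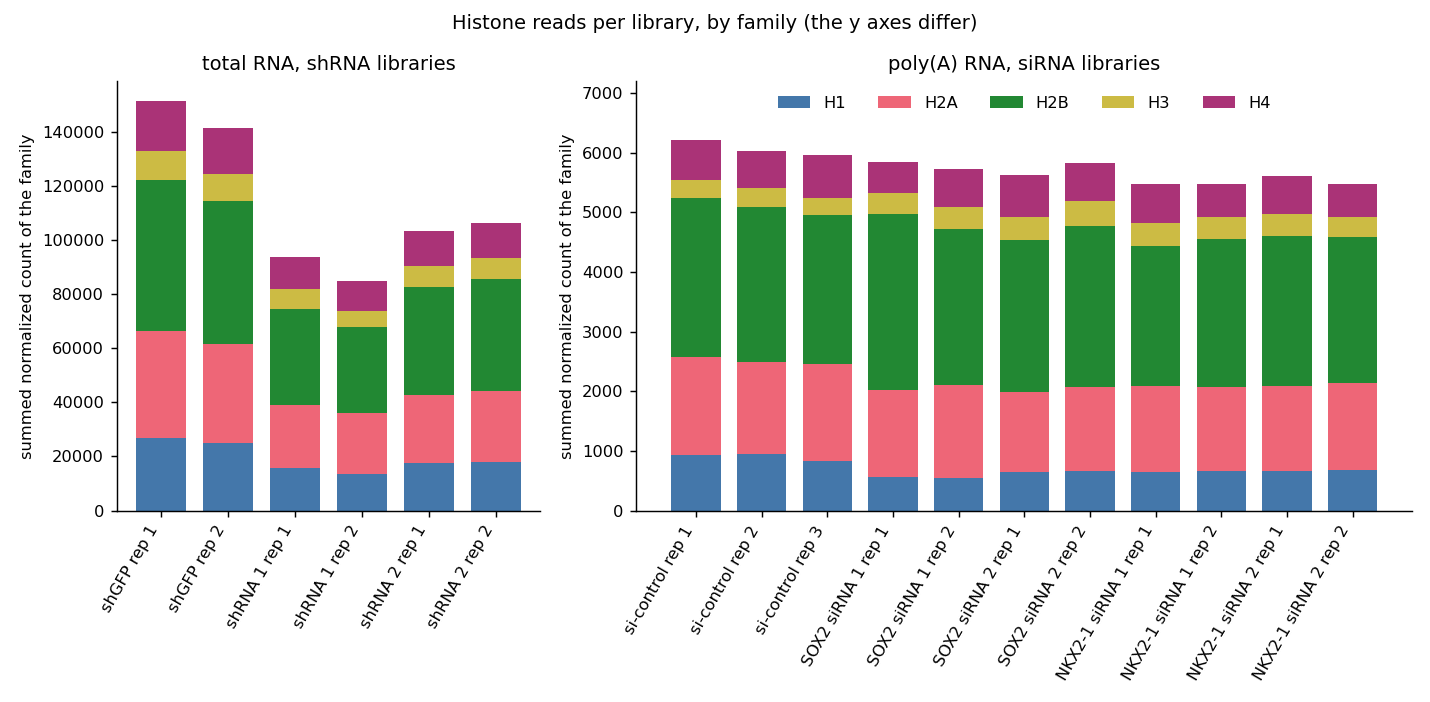
Summed normalized counts of the histone genes per library (y axis, linear, from 0), stacked by family, in total RNA (left) and poly(A) RNA (right), with different y axes. Total RNA sums lie at 141597 and 151272 in shGFP and at 84935 to 106218 with circRMST shRNAs, while poly(A) sums lie between 5466 and 6214 in all 11 libraries.

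Each gene was tested with limma on log2 of the normalized count plus 1, among all genes whose mean reached 10, at a Benjamini-Hochberg adjusted p under 0.05. With the 2 circRMST shRNAs averaged, 47 of 57 tested members fell and 0 rose, where 25.9% of all 19068 genes tested were lower and 27.8% were higher. The median log2 change was -0.53 over the members and 0.00 over all genes, and 56 of 57 members were below 0. In 48 members every knockdown library lay below every shGFP library, which held for 28.2% of all genes tested. Falls were mostly under 2-fold: they ranged from 1.21-fold to 3.10-fold, and 5 members fell by at least 2-fold. Of the 47, 42 also fell with each shRNA alone. With shRNA 1 alone 45 members and 4622 of all 19068 genes were lower, and with shRNA 2 alone 44 and 4370. The share of all genes lower with both was not computed. The single shRNAs make up the average and share the shGFP libraries, so the 42 are not separate support. The same limit holds for single siRNAs below. Replicates are called biological in the labels, with no word on separate cultures, so the p-values measure only the spread between these libraries.

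**Figure D3:**
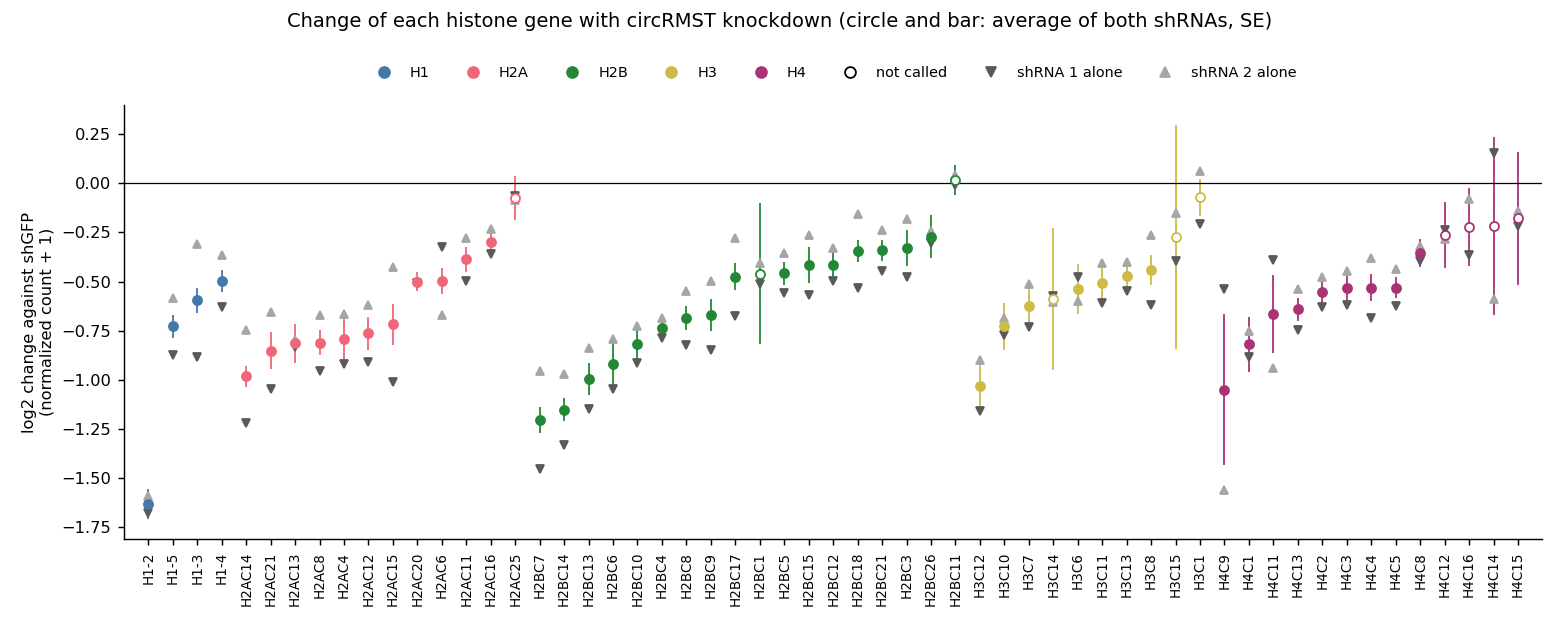
Log2 change against shGFP (y axis) of the 57 tested histone genes, grouped by family on the x axis. Circles with SE bars are the average of both shRNAs, open where not called, and triangles give each shRNA alone. All averages except that of H2BC11 lie below 0, and shRNA 1 lies below shRNA 2 for 49 of 57 genes.

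Among the linker histones all 4 tested genes fell. H1-2 showed the largest fall of any member: 4216 and 3881 normalized counts in shGFP, 1411 and 1132 with shRNA 1, and 1286 and 1407 with shRNA 2. The groups did not overlap, and the change was -1.63 ± 0.08 (log2, SE; limma adjusted p = 2.5e-14). H1-4 was at 12421 and 11799 in shGFP, 8424 and 7264 with shRNA 1, and 9390 and 9417 with shRNA 2, a change of -0.50 ± 0.05 (limma adjusted p = 4.5e-08). H1-5 was at 7567 and 6956, 4305 and 3646, and 4877 and 4798 in the same order, and changed by -0.73 ± 0.06. H1-1 and H1-6, the latter known as a testis form, had too few reads to be tested.

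Of the core histone genes, 11 of 12 tested H2A, 16 of 18 H2B, 7 of 10 H3 and 9 of 13 H4 genes fell, with median log2 changes of -0.74, -0.47, -0.52 and -0.53. H2BC7 went from 3461 and 3114 normalized counts in shGFP to 1247 and 1151 with shRNA 1 and 1703 and 1682 with shRNA 2 (-1.20 ± 0.07; limma adjusted p = 3.5e-13). H2BC14 went from 5089 and 4892 to 2076 and 1887, and 2610 and 2482 (-1.15 ± 0.06). H2AC14, the H2A gene that faces H2BC14, went from 8847 and 8664 to 3584 and 3932, and 5099 and 5358 (-0.98 ± 0.05). In all these genes shGFP stood clear of both shRNAs, and shRNA 1 was lower than shRNA 2.

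H2AC14 is among the most abundant core genes of total RNA, and several others of like abundance had smaller falls. H2AC20 went from 13015 and 12025 to 8827 and 8765 with shRNA 1 and 8805 and 8951 with shRNA 2 (-0.50 ± 0.05). H2BC18 went from 11165 and 10287 to 7981 and 6857, and 9345 and 9889 (-0.35 ± 0.06), and was not called for shRNA 2 alone (-0.16; limma adjusted p = 0.053). H2BC21 changed by -0.34 ± 0.05. Among H3 genes, H3C8 went from 3430 and 3175 to 2432 and 1899, and 2854 and 2643 (-0.44 ± 0.08), and H3C12 showed the largest H3 fall (-1.03 ± 0.10). Among H4 genes, H4C5 changed by -0.53 ± 0.05 and H4C13 by -0.64 ± 0.06. H4C9, at 41.1 and 57.9 in shGFP and 11.0 to 39.1 in the knockdown libraries, changed by -1.05 ± 0.38 (limma adjusted p = 0.025) at low counts, a call lost without shGFP replicate 2 (-0.81), without replicate 1 of shRNA 1 (-0.94) or of shRNA 2 (-0.80), with quantile normalization (-0.70) with no filter and with shRNA 1 alone (-0.54).

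The 10 tested members that were not called include H2BC11, at 1259 and 1145 in shGFP and 1112 to 1292 in the knockdown libraries (0.02 ± 0.08). H3C1, at 920 and 762 in shGFP and 656 to 888 in the others, had a log2 difference of -0.07 ± 0.09, and H2AC25 one of -0.08 ± 0.11. The other 7, H2BC1, H3C14, H3C15, H4C12, H4C14, H4C15 and H4C16, had shGFP means under 200. By place, 41 of 45 tested genes of 6p22 and 5 of 9 of 1q21 fell, and the 4 genes of 1q21 not called are H3C14, H3C15, H4C14 and H4C15, all with low counts.

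H2A and H2B genes often face each other from a shared stretch of promoter. RefSeq starts of 11 such pairs lay 194 to 248 bases apart, and both genes were tested in 8 of them. In 6 pairs both genes fell, and the log2 changes within a pair differed by a median of 0.19. The widest gap, 0.40, was between H2AC11 (-0.39 ± 0.06) and H2BC11 (0.02 ± 0.08). The other pair with a gene not called was H2AC25 and H2BC26 (-0.27 ± 0.11) of 1q42.

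The members that held most of the poly(A) signal were not alike in their response to circRMST shRNAs in total RNA. H1-2 had the largest fall (-1.63), H2AC6 changed by -0.50 ± 0.06, H2BC12 by -0.41 ± 0.06 and H2BC21 by -0.34 ± 0.05, and H2AC25 was not called.

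The shRNAs differed in depth of the fall. Of 57 members, 49 were lower with shRNA 1 than with shRNA 2, with median changes of -0.62 and -0.48. Tested directly, shRNA 2 minus shRNA 1 was higher in 23 members and lower in 1, where 8.2% and 10.9% of all genes were higher and lower. The differences among named genes were largest for H2BC7 (0.50 ± 0.08) and H2AC14 (0.48 ± 0.06). H2AC6 was the exception, at 1722 and 1675 with shRNA 1 and 1307 and 1365 with shRNA 2 (-0.35 ± 0.07; limma adjusted p = 0.0017). H1-2 did not differ beyond its error (0.09 ± 0.09).

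Some properties of the libraries moved with the groups. RNAs of the 7SL type, which also lack a poly(A) tail, took 0.180 to 0.186% of reads in shGFP and 0.379 to 0.467% in the knockdown libraries, and RN7SL2, the signal recognition particle RNA, rose by 0.87 ± 0.05 (log2, SE). Markers of small cell lung cancer summed to 24980 to 27504 with circRMST shRNAs, under the 56685 to 61437 of shGFP. Of the 8, 6 fell and 1 rose, with a median of -0.59, where 25.9% of all genes tested fell and 27.8% rose. The falls include GRP, a neuropeptide gene (-2.80 ± 0.07). Other-subtype markers summed to 0 to 1.96, fibroblast markers to 373 to 812 and blood and endothelial markers to 149 to 180 with the shRNAs. Of the 3 fibroblast markers tested, LUM rose (2.34 ± 0.13) and DCN (-3.53 ± 0.85) and COL1A1 (-2.78 ± 0.75) fell. The part of these shifts in the histone result was not tested. The shGFP libraries also held low-level reads of genes unseen in the poly(A) table: over 1548 protein-coding genes with no read or no row there, 4 members included, the excess of shGFP over the knockdown libraries had a 99th percentile of 38.7 normalized counts. The shGFP excess was above that level in 46 of the 47 members that fell, the exception being H4C9. Without the 4 members, the percentile was 38.3 and the count was also 46. Most members that fell have shGFP counts far above this level and clear it almost by being called. The count therefore cannot tell where their excess came from, which was not tested.

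Other genes of the histone supply system did not move as a block with circRMST knockdown. Among all genes tested, 27.8% rose and 25.9% fell. Of 24 tested genes for histone pre-mRNA processing and histone gene transcription, 7 rose and 3 fell (median 0.07). Cyclin E1 (CCNE1), which with CDK2 turns on histone gene transcription, rose by 0.85 ± 0.10, and the U7 snRNP partner ZNF473 rose by 0.82 ± 0.06, while CDK2 fell by 0.64 ± 0.07 on the log2 scale. SLBP itself was at 1128 and 1225 in shGFP, 935 and 995 with shRNA 1, and 1133 and 1165 with shRNA 2. Of 23 S-phase genes 9 rose and 7 fell. Among the rises were PCNA (0.68 ± 0.06), GINS3 (0.47 ± 0.10) and MCM2 (0.47 ± 0.05). Among the falls, TK1, thymidine kinase, changed by -1.21 ± 0.12 and the replication helicase subunits GINS1 and GINS2 by -1.08 ± 0.07 and -0.92 ± 0.06. Of 20 histone chaperones 7 rose and 4 fell, with ASF1B at -0.54 ± 0.10 and its paralog ASF1A at 0.41 ± 0.06. Of 10 replacement and variant histones, most of which are also made outside S phase, 3 rose and 4 fell: H2AZ2 changed by -1.17 ± 0.06, H3-3A by -0.75 ± 0.06 and H2AX by 0.91 ± 0.08.

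Another scaling shifted members and lists alike. With equal library totals the median of all tested genes moved to -0.14, and the splits of these lists, whose medians lie near 0, became 5 higher and 10 lower for processing and transcription, 8 and 11 for S-phase genes, 3 and 10 for chaperones and 1 and 6 for replacement histones. Of all 19068 genes tested, 3636 were then higher and 6513 lower. The members stayed at 0 higher and 48 lower, with a median of -0.68.

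In poly(A) RNA, SOX2 knockdown left the histone sum nearly in place and shifted single genes in both directions. Sums were 6214, 6031 and 5962 in si-control, 5848 and 5720 with SOX2 siRNA 1, and 5618 and 5830 with siRNA 2, so that all 4 lay below the controls by a small margin, at 95.3% and 94.3% of the control mean. The H1 sum went to 61.0% and 72.6% of control and the H3 sum to 119.9% and 134.2%, without overlap with the controls in either case. H1-2 alone gave 828 of the 901 control counts of the H1 sum, and 1 of 3 tested H1 genes and 1 of 5 tested H3 genes were called. Of 35 members with enough reads, 4 rose and 3 fell, where 27.6% of all 16750 genes tested were higher and 28.7% were lower, so both shares are under the background. Only 18 of the 35 reach a mean of 50. A call is harder to reach at low counts, and these shares are not matched for abundance. With quantile normalization 10 rose and 3 fell, where 30.4% of all genes rose. The members' median was 0.15, and that of all genes 0.01.

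The members that rose were less abundant in poly(A) RNA than those that fell. H2AC13 was at 29.95, 8.53 and 26.8 in si-control, 53.4 and 43.1 with SOX2 siRNA 1 and 30.4 and 42.9 with siRNA 2 (1.08 ± 0.30), a call that was lost without si-control replicate 2 (0.54; limma adjusted p = 0.064). H3C8 was at 73.6, 54.8 and 46.5 in si-control, 86.8 and 91.1 with siRNA 1, and 99.3 and 118 with siRNA 2 (0.77 ± 0.16; limma adjusted p = 0.00021). H2AC11 was at 157, 155 and 196 in si-control and 223 to 326 in the SOX2 libraries (0.62 ± 0.10). H2BC8 overlapped, at 117 to 158 in si-control and 156 to 208 with SOX2 siRNAs (0.44 ± 0.12). All 4 also rose with each siRNA alone.

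The members that fell were among the most abundant. H1-2 was at 835, 874 and 775 in si-control, 490 and 480 with SOX2 siRNA 1, and 584 and 558 with siRNA 2 (-0.65 ± 0.06; limma adjusted p = 3.1e-10). H2AC6 was at 729, 749 and 737, 520 and 579, and 517 and 569 in the same order (-0.44 ± 0.06; limma adjusted p = 5.8e-07). H2AC25 was at 528 to 572 in si-control and 420 to 512 with SOX2 siRNAs (-0.25 ± 0.06), and was not called for siRNA 1 alone (-0.14; limma adjusted p = 0.12). In H1-2 and H2AC6 every SOX2 library lay clear of every control. The share of all genes without overlap was not computed for the siRNAs. For falls with circRMST shRNAs it was 28.2%.

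NKX2-1 knockdown likewise moved members both ways, against the same si-control libraries. The sums were 5477 and 5481 with NKX2-1 siRNA 1 and 5601 and 5466 with siRNA 2, at 90.3% and 91.2% of the control mean. Of 35 members 11 rose and 6 fell, where 18.5% and 21.4% of all genes were higher and lower. The median was 0.05 over the members and 0.00 over all genes. With DESeq2, with no filter, with a minimum mean of 50 or with a replicate term, the number that rose was 6 or 7, as it was without any 1 of the si-control or NKX2-1 libraries except si-control replicate 1 (11). The filters change the number tested: 6 of 60 members rose with no filter and 6 of 18 at a minimum mean of 50. At that minimum 2853 of all 12930 genes tested rose. Of the 11 in the main fit, 2 members, H2AC11 and H2BC21, also rose with each siRNA alone.

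Among the falls, H2BC12 was at 1152, 1135 and 1085 in si-control, 742 and 796 with NKX2-1 siRNA 1, and 762 and 811 with siRNA 2 (-0.53 ± 0.06; limma adjusted p = 1.7e-08). H4C9, inside its span, was at 394, 384 and 413, 291 and 231, and 271 and 294 (-0.55 ± 0.09). H1-2 was at 590 and 611 with siRNA 1 and 603 and 617 with siRNA 2 (-0.45 ± 0.06; limma adjusted p = 5.7e-07), below every control. H2AC6 was at 600 in both libraries of siRNA 1 and at 569 and 574 with siRNA 2 (-0.33 ± 0.06). H2AC25 changed by -0.25 ± 0.06. These 5 also fell with each siRNA alone, while the sixth, H2BC11, did so with siRNA 1 only (-0.55, against 0.02 with siRNA 2).

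Of the 11 rises, 5 were of genes with a si-control mean under 50 (H2AC13, H2BC6, H2BC7, H3C13 and H4C12). H4C12 was at 3.74, 2.44 and 12.7 in si-control, 8.49 and 11.4 with NKX2-1 siRNA 1 and 18.0 and 17.3 with siRNA 2 (1.23 ± 0.44; limma adjusted p = 0.026), and H2BC7 at 18.7, 11.0 and 8.46, 17.9 and 23.3, and 27.1 and 28.4 (0.93 ± 0.36; limma adjusted p = 0.039). In both the groups overlap. With a single library left out, H4C12 was tested in only 4 of 7 fits, since its mean fell under the filter in the others. Among these 4 fits, the call of H4C12 was lost without si-control replicate 1 or 2, or without NKX2-1 siRNA 1 replicate 2 (0.82 to 1.13). That of H2BC7 was lost without any one library except si-control replicate 1 and NKX2-1 siRNA 1 replicate 1 (0.69 to 0.94). H2AC13 was at 29.95, 8.53 and 26.8 in si-control and at 32.3 to 38.7 with NKX2-1 siRNAs (0.89 ± 0.30), a call lost without si-control replicate 2 (0.34), NKX2-1 siRNA 1 replicate 1 (0.82) or NKX2-1 siRNA 2 replicate 2 (0.86). H3C13 was at 21.2, 18.3 and 12.7 in si-control and 24.8 to 31.9 with NKX2-1 siRNAs (0.70 ± 0.26), a call that was kept only when the library left out was si-control replicate 1, and at its lowest (0.50) without si-control replicate 3. H2BC21, with more reads, was at 473, 515 and 489 in si-control and 531 to 648 with NKX2-1 siRNAs (0.27 ± 0.07).

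When only genes whose mean reached 300 were tested, which was decided after the data were seen, 6 members were left: H2BC12, H1-2, H2AC6, H2AC25, H2BC21 and H4C9. Of these, 0 rose and 3 fell with SOX2 siRNAs, where 38.6% and 30.4% of the 9258 genes tested rose and fell, and 1 rose and 5 fell with NKX2-1 siRNAs, where 23.8% and 29.3% did.

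**Figure D4:**
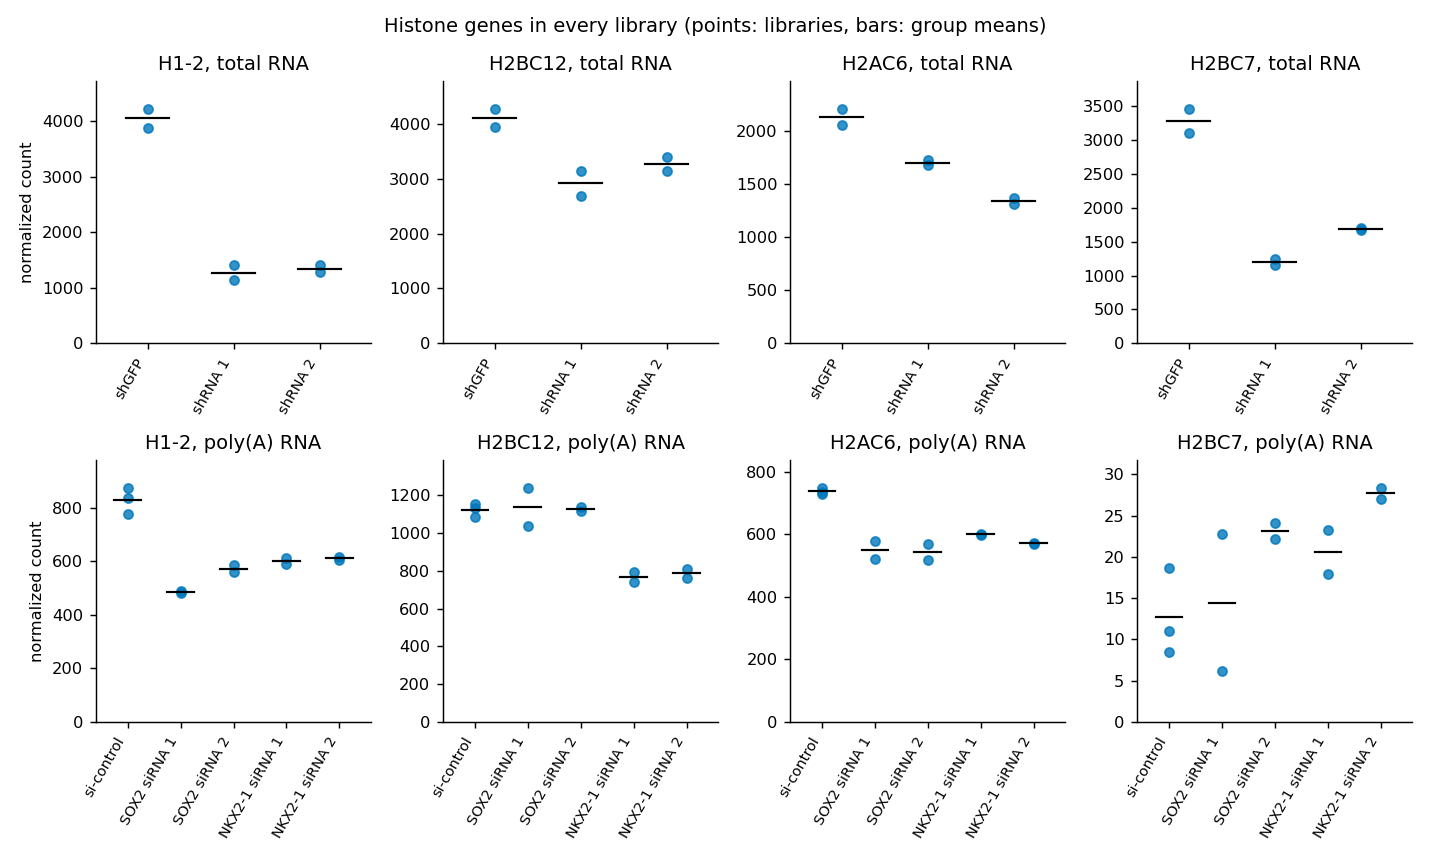
Normalized counts (y axes, linear, from 0) of H1-2, H2BC12, H2AC6 and H2BC7 in every library of total RNA (top) and poly(A) RNA (bottom), with a point per library and a bar at each group mean. H1-2 and H2AC6 are below control in all 3 knockdowns, H2BC12 is below si-control with NKX2-1 but not with SOX2 siRNAs, and H2BC7 in poly(A) RNA rests on values of 6.16 to 28.4.

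SOX2 and NKX2-1 siRNAs were compared directly, since their changes share the control libraries. Of 35 members, 6 were higher and 2 lower with SOX2 siRNAs, where 27.9% and 28.0% of all genes were. With equal library totals the split was 4 higher and 6 lower. H2BC12 was at 1239 and 1037 with SOX2 siRNA 1 and 1114 and 1138 with siRNA 2, above all 4 NKX2-1 libraries at 742 to 811 (0.54 ± 0.05; limma adjusted p = 1.3e-09), and H4C9 differed in the same direction (0.38 ± 0.09). H1-2 was lower with SOX2 than with NKX2-1 siRNAs (-0.20 ± 0.05; limma adjusted p = 0.0026). H3C8 was higher with SOX2 siRNAs (0.43 ± 0.15), H4C5 was at 18.5 to 23.4 with SOX2 and 7.55 to 14.3 with NKX2-1 siRNAs (0.86 ± 0.30), and H1-4 (0.59 ± 0.24) and H2BC4 (0.45 ± 0.18) overlapped between the groups. These 4 low-count calls were lost when single libraries were left out: H4C5 without NKX2-1 siRNA 1 replicate 1 (0.65), H3C8 without that library, NKX2-1 siRNA 2 replicate 2 or SOX2 siRNA 2 replicate 2 (0.36 to 0.39), H1-4 without 4 of the 8 libraries (0.41 to 0.54) and H2BC4 without 6 (0.28 to 0.49). H4C8 was lower with SOX2 siRNAs (-0.34 ± 0.13), with overlap, a call lost without 5 of the 8 libraries and smallest (-0.13) without NKX2-1 siRNA 2 replicate 1.

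**Figure D5:**
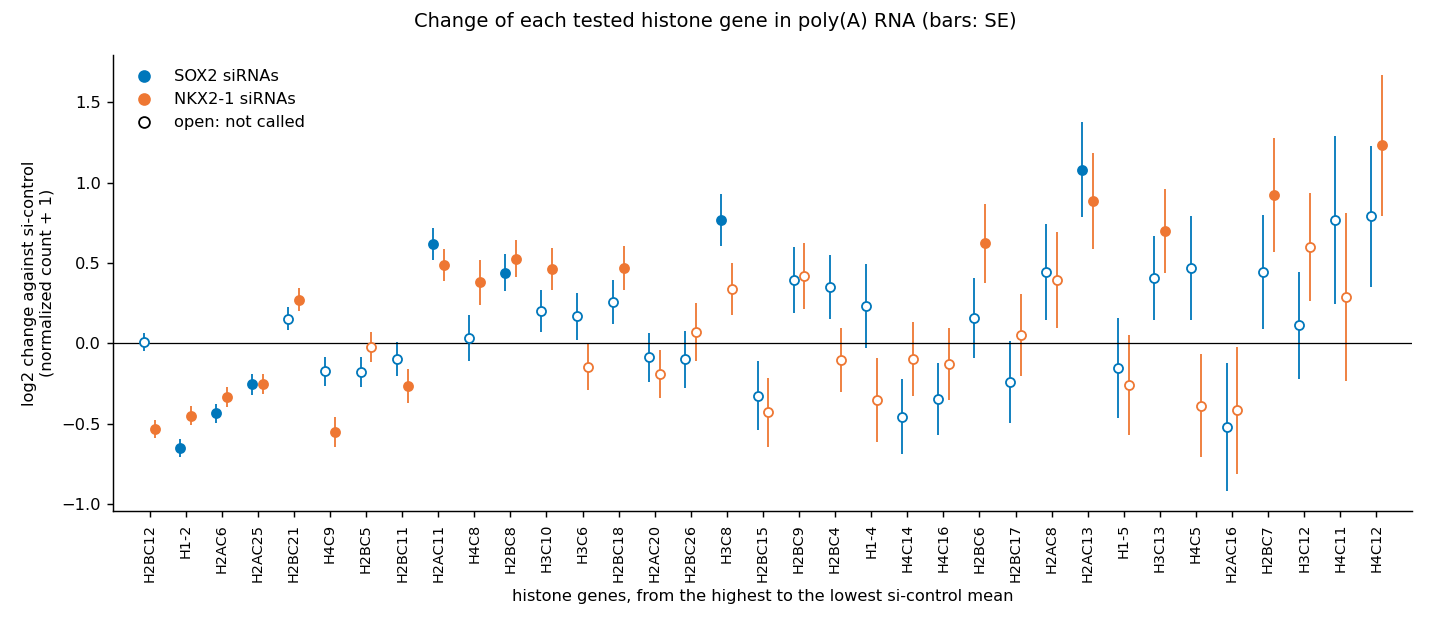
Log2 change against si-control (y axis, with SE bars) of the 35 tested histone genes, ordered along the x axis from the highest to the lowest si-control mean, for SOX2 siRNAs and NKX2-1 siRNAs, open where not called. Both series share the si-control libraries. Error bars widen to the right as counts fall, and H2BC12, at the left, is at 0.01 with SOX2 and -0.53 with NKX2-1 siRNAs.

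Reagents against the same factor differed in few members. SOX2 siRNA 2 minus siRNA 1 was higher in 1 (H1-2, 0.23 ± 0.08) and lower in 1 (H2BC21, -0.61 ± 0.09), where 10.4% and 8.08% of all genes were. NKX2-1 siRNA 2 minus siRNA 1 was higher in 1 (H2BC11, 0.58) and lower in 1 (H2BC18, -0.69 ± 0.18), where 14.8% and 11.7% were.

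Among the other genes of the histone supply system, SOX2 knockdown raised most S-phase genes: 19 of 23 rose and 1 fell, with E2F1, the S-phase transcription factor, at 0.50 ± 0.04 and MCM2, a helicase subunit, at 0.45 ± 0.04. Over all genes tested, 27.6% rose and 28.7% fell with SOX2 siRNAs. Of 19 chaperones 14 rose and 3 fell, led by HIRA (0.54 ± 0.09) and CHAF1A (0.46 ± 0.04). Of 10 replacement histones 9 rose and 1 fell: H3-3A, the replacement H3, was at 2546 to 2649 in si-control and 5995 to 6790 with SOX2 siRNAs (1.31 ± 0.03). Of 24 processing and transcription genes 7 rose and 4 fell, with SRRT at 0.37 ± 0.04 and MIF4GD at -0.37 ± 0.06. With NKX2-1 siRNAs 9 of 23 S-phase genes rose and 2 fell, 5 of 19 chaperones rose and 1 fell, 8 of 10 replacement histones rose and 1 fell, and 2 of 24 processing genes rose and 2 fell. Over all genes tested, 18.5% rose and 21.4% fell with NKX2-1 siRNAs. With equal library totals the NKX2-1 splits became 10 and 0 for chaperones and 6 and 1 for processing genes. Of all 16750 genes tested, 4224 then rose and 2643 fell. H3-3A was at 6301 to 6548 with NKX2-1 siRNAs (1.30 ± 0.03), and HINFP, which binds H4 promoters, changed by 0.38 ± 0.08. Both H3-3A changes are against the same si-control libraries, and the part of those controls in them was not tested. RN7SL2 changed by -0.42 ± 0.10 with SOX2 siRNAs and was not called with NKX2-1 siRNAs (0.07 ± 0.10). Markers of small cell lung cancer summed to 65316 to 70653 with SOX2 and 62494 to 69020 with NKX2-1 siRNAs, and blood and endothelial markers to 78.8 to 142 and 155 to 447, against 345 to 362 in si-control. Of the 8 small cell lung cancer markers, 3 rose and 3 fell with SOX2 siRNAs, and 3 rose and 2 fell with NKX2-1 siRNAs. NKX2-1, itself a target, is on that list. Fibroblast markers summed to 219 to 291 and 67.0 to 115, against 84.9 to 116. The part of these shifts in the members' changes was not tested.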

How the data were processed

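RNA sequencing of 17 SHP77 libraries was used; 10 ChIP-seq and input samples of the series' 27 were not analysed here. Reads were paired at 150 bases, from 1 µg (total RNA) or 500 ng (poly(A) RNA), per the labels. The submitters' processing notes name cutadapt 2.5, STAR 2.5.2b, DESeq2 and the build hg38; the counter, the annotation and the use of strand are not given in the sources used here. The deposited signal is a normalized count per gene, in a separate table for each experiment; 100% of values were whole multiples of a step within 0.05 reads, from which reads were recovered. Non-human features and chromosome Y copies were left out, and symbols were found for 98.5% of the IDs by Ensembl ID. Symbols H3C2, H3C3, H3C4, H2AC18 and H2AC19 matched no row and were not analysed here. Members of only 1 table are H2AC7, H2AC15, H2BC1 and H4C6 (shRNA) and H2AC17 (siRNA). H2AC12, H3C11, H3C12, H4C1 and H4C3 had no promoter window.

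In R 4.3.3, limma 3.58.1 (eBayes with trend) was fitted to log2(normalized count + 1), a mean per group, over all libraries of a table; genes had a mean of at least 10, and 57 and 35 members passed. A member that passed had to have reads in some group, so low members are missing from the counts. Each knockdown is the average of its 2 reagents minus control; adjusted p-values are Benjamini-Hochberg over all genes tested, two-sided, with a threshold of 0.05. The pseudocount makes changes of low genes look smaller than they are. The limma and edgeR fits were tested on simulated counts, with changes put only into genes with a mean of at least 50. Changes of genes with lower means were not covered. Alternatives were other scalings, pseudocounts, filters, edgeR 4.0.16 and DESeq2 1.42.0 on recovered reads, a replicate block, single reagents and each library left out. Named were the 2 members of each family with the highest control mean per table, up to 4 rises and 4 falls per knockdown, up to 5 SOX2 against NKX2-1 differences, and up to 3 genes per list, some of which are not reported here; other names were added after values were seen. Members and lists were chosen with earlier results of these data known.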

Additional observations from a re-analysis of the deposited data

Results flagged for a closer look

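Some members differed between reagents against the same target, by limma's test of the difference itself (log2, reagent 2 minus reagent 1, over all genes tested). For circRMST, shRNA 2 minus shRNA 1 was 0.27 for H1-4, 0.29 for H1-5, 0.22 for H2AC11, 0.48 for H2AC14, 0.36 for H2BC14, 0.38 for H2BC18, 0.21 for H2BC21, 0.50 for H2BC7, 0.27 for H2BC8, 0.35 for H3C8, 0.21 for H4C13 and 0.19 for H4C5. All of these fell with the shRNAs averaged and lay lower with shRNA 1. H2AC6 differed the other way, at -0.35, and fell further with shRNA 2. For the siRNAs, the difference was 0.23 for H1-2 and -0.61 for H2BC21 between the SOX2 siRNAs, and -0.69 for H2BC18 between the NKX2-1 siRNAs.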

How the results depend on the processing

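With circRMST knockdown, 43 to 48 members were lower and 0 higher under every alternative run, and of 24 named members called, 22 kept their call throughout; the exceptions are H4C9 and H2BC18. With SOX2 siRNAs, 4 higher became 10 with quantile normalization and 0 at a mean of at least 300. With NKX2-1 siRNAs, 11 higher became 6 with no filter, 6 at a mean of at least 50, 1 at a mean of at least 300, 6 with DESeq2, 7 with siRNA 1 alone and 6 with siRNA 2 alone, and ranged from 6 to 11 with each library left out. SOX2 minus NKX2-1, 6 higher and 2 lower, became 3 and 1 with no filter and 2 and 1 at a mean of at least 300; 6 were lower with equal totals, also without mitochondrial and 7SL-type genes, and 1 with quantile normalization; leaving out each library gave 3 to 7 higher and 1 to 4 lower. No call of a named member reversed. The cause of these shifts was not tested, except that the filters change which members enter.

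Same-numbered libraries did not vary alike: correlations of their deviations from group means were -0.35 to 0.10. The -0.35 is between NKX2-1 siRNA 1 and SOX2 siRNA 1. With 2 libraries in each group, it means that their libraries of opposite number varied alike, which a block on replicate number does not cover. With a replicate block, 7 members were higher with NKX2-1 siRNAs, and 47 lower with circRMST shRNAs.

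Without mitochondrial and 7SL-type genes, mean shares of reads became 0.575% (shGFP), 0.328% and 0.405% (circRMST shRNA 1 and 2), 0.0309% (si-control), 0.0290% and 0.0284% (SOX2 siRNA 1 and 2) and 0.0288% and 0.0282% (NKX2-1 siRNA 1 and 2). Among protein-coding genes only, median percentiles were 72.3 in total RNA and 22.8 in poly(A) RNA. A rank per kilobase of transcript was not run. In poly(A) RNA, 25 of the 60 members had too few reads to be tested, which limits what could be detected there.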
